A study of Drosophila melanogaster with 30 samples.

Results

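The Cpr genes of Drosophila melanogaster encode cuticular proteins and are named for the chromosome band in which each lies. All rows of the count table whose name begins with Cpr and a digit were taken, which gave 70 of 17562 genes. They lay on 3L (35 genes), 2R (21), 2L (5), 3R (5) and X (4), and their exons spanned from 389 to 4525 bases (median 862.5) in the dm6 annotation.

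The cuticle is the outer matrix that the epidermis secretes over the body, the tracheae and the corneal lenses of the eye. It is built from chitin fibres and structural proteins, and most Cpr proteins carry the Rebers and Riddiford (R&R) sequence, which binds chitin. Newly emerged flies still expand, tan and thicken their cuticle, so heads of young adults hold epidermal transcripts beside those of neurons, glia, photoreceptors, muscle and fat body.

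Heads of male progeny were collected 1 to 2 days after eclosion from crosses kept at 25 °C, with 200 heads pooled per replicate. All groups carried daGal4, a driver active in nearly all cells. Control flies were daGal4 > KK control, kept in basal conditions or given heat shock (HS) for 30 min at 38.5 °C. UAS-dTrmt10A flies, in which the driver raises dTrmt10A (CG14618, a predicted tRNA methyltransferase), were sampled in the same 2 conditions, and dTrmt10A RNAi flies in basal conditions alone. Each of the 5 groups had 3 replicates, and from each replicate fragmented polyA+ RNA was sequenced before (input) and after immunoprecipitation with an antibody to N6-methyladenosine (IP), giving 30 libraries. The fly lines differ in insertion and genetic background as well as in dTrmt10A, and these cannot be told apart. In a sample of whole heads, fewer cells of a type and less RNA per cell also cannot be told apart.

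Total counts ranged from 20110909 to 51006574 in input and from 16255688 to 30456825 in IP, so 3 counts, used as a floor, corresponded to 0.0588 to 0.149 CPM in input. CPM is a gene's counts relative to the total of its library, here scaled between libraries by the TMM method. dTrmt10A changed as labelled: its log2 change against control in input was -1.06 with RNAi, 4.35 with UAS-dTrmt10A in basal conditions and 5.42 after HS. All 30 libraries were closest to another library of their own group. The libraries were not uniform in yolk protein transcripts, which adult females make in the fat body. Yp1 ranged from 50.7 to 452 CPM in 5 input libraries (control basal replicate 1, dTrmt10A RNAi basal replicate 2, UAS-dTrmt10A basal replicates 1 and 2, and UAS-dTrmt10A HS replicate 3) and from 0.269 to 15 CPM in the other 10, although the labels give males. The eye pigment gene w, which many transgene insertions carry as a marker, was at 2.99 to 4.58 CPM in the control libraries, 8.92 to 11.2 CPM with UAS-dTrmt10A and 539 to 632 CPM with dTrmt10A RNAi.

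Cpr transcripts made up 0.245 to 0.308% of the input counts in control basal, 0.177 to 0.240% in control HS, 0.255 to 0.322% in UAS-dTrmt10A basal, 0.220 to 0.275% in UAS-dTrmt10A HS and 0.273 to 0.312% in dTrmt10A RNAi. The family was very unevenly expressed. In control basal the mean input level passed 100 CPM for 8 of the 70 genes, 10 CPM for 20 and 1 CPM for 29. Enough reads to be tested in an input comparison were found for 35 genes, 30 of which had at least 10 counts in every input library. The other 35 never passed 0.650 CPM or 21 counts in any input library. Among these was Cpr57A, with 0 counts in all 30 libraries. Its exons lie wholly within those of Obp57d on the same strand, so its level cannot be read from these counts. Cpr65Ax1 and Cpr65Ax2, and likewise Cpr67Fa1 and Cpr67Fa2, are near-identical pairs between which reads could be split, and their input counts summed over 15 libraries were 1 and 7, and 1 and 4.

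Per kilobase of exon, the highest level in control basal was that of Cpr100A (chr3R:30867521-30869184), a chitin-binding family member, at 403 ± 96.3 input CPM per kb (SD, n = 3). Cpr65Au followed at 388 ± 53.7 and Cpr72Ec at 301 ± 48.6 input CPM per kb. Cpr72Ec (chr3L:16365894-16367340, a gene of 1 exon) encodes a protein of the corneal lens. The libraries of these 3 genes overlapped. Next came Cpr49Ae at 183 ± 12, Cpr97Eb at 146 ± 31.9, Cpr67B at 130 ± 5.17 and Cpr62Bc at 112 ± 8.61 input CPM per kb. Cpr97Ea at 91.1 ± 16.8, Cpr49Ag at 89.8 ± 3.62 and Cpr47Ee at 53.5 ± 1.64 closed the list of 10. Neighbours in this order overlapped between libraries, except at 4 steps without overlap, from Cpr72Ec to Cpr49Ae, from Cpr67B to Cpr62Bc, from Cpr62Bc to Cpr97Ea (by less than 1 CPM per kb) and from Cpr49Ag to Cpr47Ee. Exons of Cpr65Au share 491 bases with an antisense RNA on the opposite strand, and whether reads were counted by strand is not given in the sources used here. How this overlap affected its level was not tested.

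**Figure D1:**
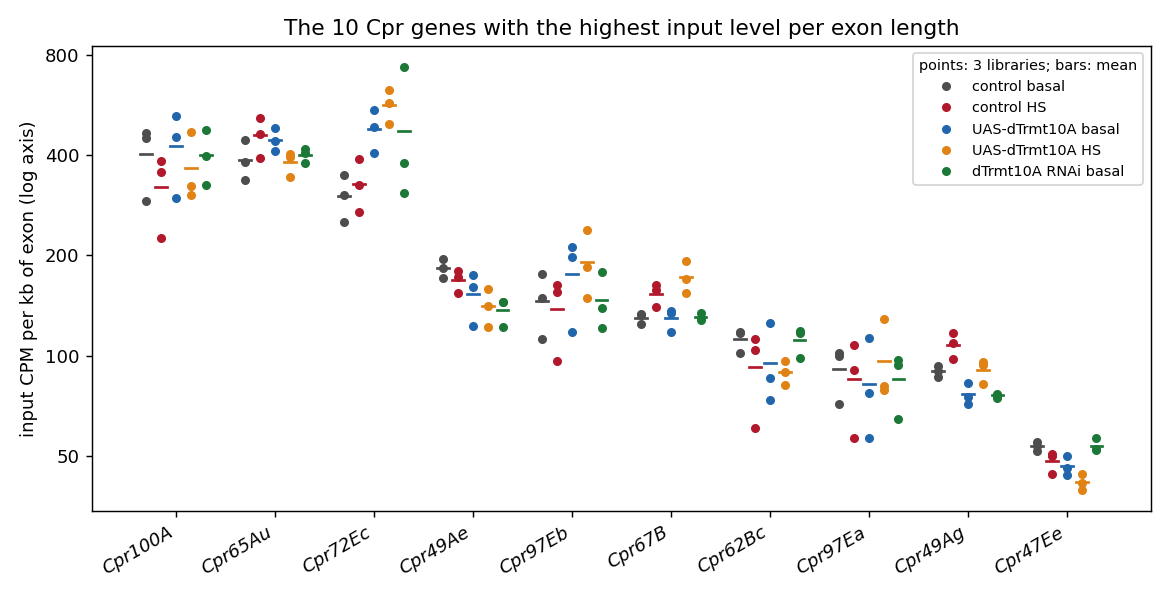
Input level of the 10 Cpr genes with the highest level per exon length, in TMM-scaled CPM per kilobase of exon on a log axis. Points are the 3 libraries of each of the 5 groups and bars their means. Cpr100A, Cpr65Au and Cpr72Ec lie above every library of the other 7 genes within control basal, and Cpr47Ee below them.

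The question of the UAS-dTrmt10A comparison is what raised dTrmt10A does to the head transcriptome, here to the cuticle genes. In basal conditions 4 Cpr genes rose and 1 fell, of 34 tested. Of all 10206 genes tested, 1.80% rose and 1.01% fell (edgeR's quasi-likelihood test, Benjamini-Hochberg adjusted p under 0.05). The median log2 change was -0.11 over the Cpr genes and 0.00 over all genes, and 13 of the 34 lay above 0. The 5 called genes lie at separate places in the genome, on 2R, X, 3L and 3R.

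Cpr51A (chr2R:14512559-14515211) was at 1.17, 1.42 and 1.69 input CPM in the control basal libraries and at 4.42, 5.51 and 4.53 in the UAS-dTrmt10A libraries. The groups did not overlap, and the log2 change was 1.74 ± 0.19 (SE, adjusted p = 0.00236). Cpr49Af was at 0.688, 0.487 and 0.683 input CPM in control basal and at 1.35, 2.52 and 1.92 with UAS-dTrmt10A. All libraries of this low gene with UAS-dTrmt10A were above all controls, and the log2 change was 1.64 ± 0.30 (adjusted p = 0.0269). Cpr11B (chrX:12553124-12554235), which lies within an intron of hwt, was at 12.1, 12.2 and 12.1 input CPM in control basal and at 28.0, 20.8 and 20.4 with UAS-dTrmt10A. The control libraries were nearly equal and the UAS-dTrmt10A libraries were all higher, with a log2 change of 0.92 ± 0.12 (adjusted p = 0.00620).

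The lens gene Cpr72Ec was at 504, 364 and 438 input CPM in control basal and at 701, 587 and 792 with UAS-dTrmt10A, again without overlap. Its log2 change was 0.67 ± 0.14 (adjusted p = 0.0382). The 3 tested genes of the corneal lens list, which leaves out all Cpr genes, did not pass the test in this comparison. Cpr92F (chr3R:20669571-20672821) was the gene that fell, from 28.2, 23.9 and 25.0 input CPM in control basal to 13.9, 15.5 and 11 with UAS-dTrmt10A. Its log2 change was -0.95 ± 0.12 (adjusted p = 0.00567).

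The neighbours of Cpr49Af did not pass the test. Cpr49Af lies between Cpr49Ae and Cpr49Ag in a run of 8 Cpr49A genes on 2R, and the log2 changes of these 2 neighbours were -0.27 ± 0.12 (adjusted p = 0.327) and -0.23 ± 0.07 (adjusted p = 0.144). The differences between neighbours were not tested. Cpr72Ea and Cpr72Eb, beside Cpr72Ec on 3L, had at most 8 and 7 counts in any input library and could not be tested. The largest other values were 0.76 for Cpr49Ac, whose libraries ranged from 1.77 to 20.8 input CPM within the UAS-dTrmt10A basal group, 0.74 for Cpr64Ad and -0.61 for Cpr64Aa, with adjusted p from 0.282 to 0.633.

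Calls for Cpr51A, Cpr11B and Cpr92F were kept under all alternatives tried. That of Cpr49Af was lost with a replicate block (adjusted p = 0.0812) and when any library but UAS-dTrmt10A basal replicate 1 was left out (adjusted p from 0.0589 to 0.133). That of Cpr72Ec was lost without control basal replicate 2 (adjusted p = 0.149), control basal replicate 3 (0.126) or UAS-dTrmt10A basal replicate 3 (0.124). Without control basal replicate 2, without control basal replicate 3 or without UAS-dTrmt10A basal replicate 3, 3 Cpr genes were called. Restricted to libraries with low Yp1, which left UAS-dTrmt10A basal replicate 3 against control basal replicates 2 and 3, all 5 genes remained called in the same direction (Cpr51A 1.54, Cpr49Af 1.71, Cpr11B 0.76, Cpr72Ec 0.99 and Cpr92F -1.14), among 9 called in all. This choice was made after seeing the data, and the lone library is assumed to vary like the controls.

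**Figure D2:**
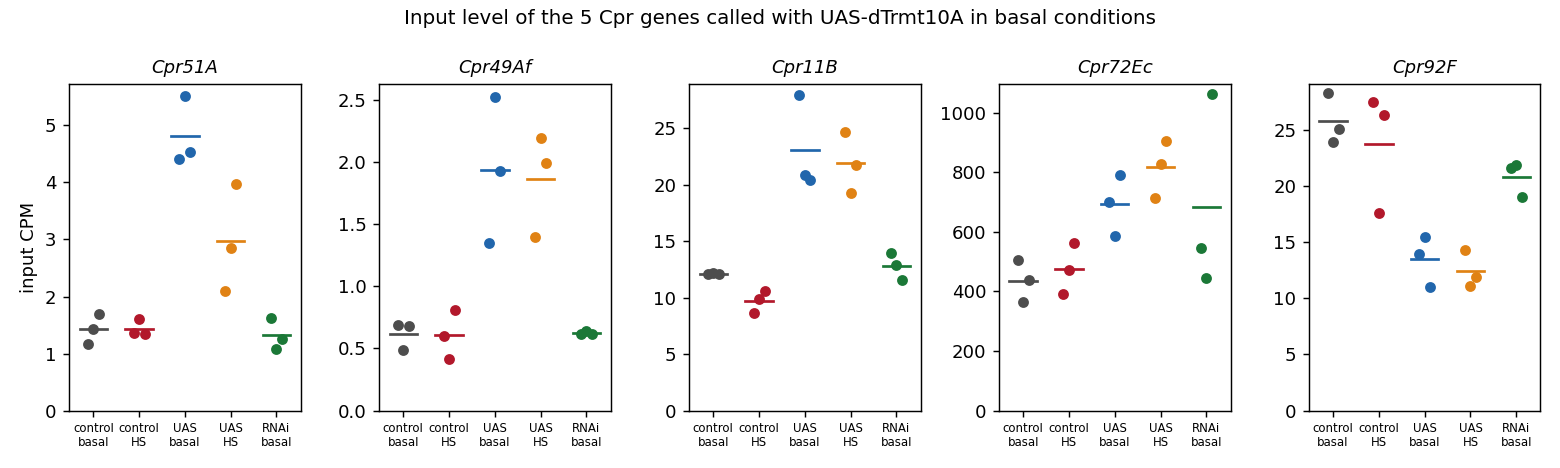
Input level, in TMM-scaled CPM, of the 5 Cpr genes called with UAS-dTrmt10A in basal conditions, in all 5 groups. Points are the 3 libraries of each group and bars their means. Cpr51A, Cpr49Af, Cpr11B and Cpr72Ec are higher and Cpr92F lower in each UAS-dTrmt10A basal library than in each control basal library.

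The same genotypes were compared after HS with other libraries. Here 3 Cpr genes rose and 1 fell, of 34 tested, and of all 10287 genes 3.20% rose and 3.33% fell. All 4 were among the 5 called in basal conditions, in the same direction. The median log2 change was -0.05 over the Cpr genes.

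Cpr11B was at 8.67, 9.86 and 10.6 input CPM in control HS and at 24.7, 19.2 and 21.8 in UAS-dTrmt10A HS, with a log2 change of 1.17 ± 0.12 (adjusted p = 0.00164). Cpr49Af was at 0.596, 0.413 and 0.809 input CPM in control HS and at 1.40, 2.19 and 1.99 in UAS-dTrmt10A HS, with a log2 change of 1.61 ± 0.32 (adjusted p = 0.0254). Both were higher in every UAS-dTrmt10A HS library than in every control HS library. Cpr72Ec went from 391, 472 and 562 to 715, 829 and 906 input CPM, a log2 change of 0.77 ± 0.13 (adjusted p = 0.0140). Cpr92F was at 27.5, 17.6 and 26.3 input CPM in control HS and at 14.3, 11.1 and 11.9 in UAS-dTrmt10A HS, a log2 change of -0.94 ± 0.18 (adjusted p = 0.0212). The groups did not overlap for either gene. Cpr51A was at 1.35, 1.60 and 1.35 input CPM in control HS and at 2.10, 2.85 and 3.97 in UAS-dTrmt10A HS. It too was without overlap, but at 1.06 ± 0.27 its adjusted p was 0.0525.

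Replicate numbers paired the libraries in this comparison, and with the replicate block 5 Cpr genes rose and 4 fell, where 11.6% of all genes were called in either direction. The block added Cpr51A (1.02, adjusted p = 0.0329) and Cpr97Eb (0.46, adjusted p = 0.00622) to the genes that rose. It added Cpr49Ae (-0.28), Cpr49Ag (-0.26) and Cpr65Au (-0.27) to those that fell, with adjusted p from 0.0195 to 0.0240. Without UAS-dTrmt10A HS replicate 2 a single Cpr gene was called. Without control HS replicate 1, control HS replicate 3 or UAS-dTrmt10A HS replicate 3, 2 were called. The fit without UAS-dTrmt10A HS replicate 3 is the same as that with low-Yp1 libraries alone, and its 2 genes were Cpr11B (1.18) and Cpr72Ec (0.70). Cpr11B was called whichever library was left out. Cpr49Af was lost when any library but UAS-dTrmt10A HS replicate 1 was left out (adjusted p from 0.0532 to 0.0987). Cpr92F was lost without each of these 4 libraries in turn (adjusted p from 0.0539 to 0.0838), and Cpr72Ec without UAS-dTrmt10A HS replicate 2 (adjusted p = 0.0608).

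Other cuticle genes were read from lists of known function. Of 21 tested of 25 cuticle tanning genes, 2 rose with UAS-dTrmt10A in basal conditions, AANATL2 (1.17) and yellow-b (0.47). Of 16 tested of 31 other structural cuticle genes (the Lcp and Ccp84A families, Edg78E, Edg84A, Edg91, Pcp, Acp1, Acp65Aa and resilin), 1 fell, resilin, which encodes an elastic cuticle protein (-1.15). Of 4 tested Tweedle cuticle protein genes, TwdlT rose (0.71) and TwdlG fell (-0.71). Of 9 tested chitin-binding obstructor genes obst-E rose (0.33), of 12 tested genes of the ZP-domain apical matrix tyn fell (-0.37), and of 16 chitin synthesis and chitinase genes none passed the test. Among cell type markers, Rh5 (0.78) of 11 photoreceptor genes, w (1.55) and bw (-0.61) of 6 eye pigment genes and to (-2.15) of 10 fat body genes were called, and none of 10 neuronal, 8 muscle, 7 glial, 5 epidermal or 4 tracheal genes. The summed level of the 5 epidermal markers was 853 to 925 input CPM in control basal and 858 to 873 with UAS-dTrmt10A, and 0 of these 5 genes were at 0 in every library.

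After HS the summed level of the 5 epidermal markers, among them drd, grh, shot and vvl, differed between the genotypes. It was 973 to 1046 input CPM in control HS and 1158 to 1302 in UAS-dTrmt10A HS, without overlap, and 1 of the 5, drd, rose (0.24). Expression of these markers in other cells of the head was not examined, so their sum need not measure epidermis alone. The part of these markers in the Cpr values was not tested. Of 21 tanning genes AANATL2 (0.64) and yellow-b (0.64) rose and AANAT1 fell (-0.46), and of 16 other structural cuticle genes Edg78E fell (-1.25). Of 6 Tweedle genes TwdlT rose (0.55) and TwdlG fell (-0.75), of 17 chitin synthesis and chitinase genes Cht10 rose (1.57), and of 12 ZP-domain genes zye (0.72) and dpy (0.29) rose and mey fell (-2.50). Among other markers, Rh5 (0.55) and norpA (0.47) of 11 photoreceptor genes and w (1.25) rose, bw fell (-0.71), and of 10 fat body genes Yp1 (6.99) and Yp2 (5.91) rose and fit fell (-1.22). Yp1 was at 14.96, 5.28 and 248 input CPM in UAS-dTrmt10A HS, and Yp2 at 15.66, 5.18 and 164. Each library was above all control HS libraries, but replicate 3, noted above for its high Yp1, was far above the rest. The part of that library in the size of these changes was not tested. None of 10 neuronal, 8 muscle, 7 glial, 4 tracheal, 9 obstructor or 3 lens genes passed the test.

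Reduced dTrmt10A was compared with the same control basal libraries. Of 34 Cpr genes tested, 0 rose and 1 fell, where 0.381% of all 10225 genes rose and 0.333% fell. The gene was Cpr47Ef (chr2R:11266915-11272575), at 34.5, 31.4 and 34.6 input CPM in control basal and at 25.6, 26.3 and 27.6 with dTrmt10A RNAi. The groups did not overlap, and the log2 change of -0.34 ± 0.06 was at the threshold (adjusted p = 0.0499). The call was lost without any 1 of the control basal replicates, without dTrmt10A RNAi replicate 1 or 2 (adjusted p from 0.0610 to 0.209), with total library size, with at least 10 counts required in every library, and with low-Yp1 libraries alone (-0.31, adjusted p = 0.487).

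Several other Cpr genes were separated between the groups without passing the test. Cpr49Ae was at 232, 218 and 203 input CPM in control basal and at 172, 172 and 145 with RNAi (-0.42, adjusted p = 0.0639). Cpr73D was at 45.1, 36.2 and 43.5 and at 30.9, 29.9 and 32.7 input CPM (-0.41, adjusted p = 0.0708). Cpr66D was at 2.14, 2.69 and 1.76 and at 1.23, 1.12 and 0.671 input CPM (-1.14, adjusted p = 0.140). Cpr50Ca was at 0.243, 0.561 and 0.432 and at 1.19, 1.12 and 0.788 input CPM (1.29, adjusted p = 0.181). None of these 4 genes overlapped between control basal and RNAi libraries. They were picked after their values were seen, and the share of all genes without overlap was not counted. No effect of RNAi is read from them. The lens gene Cpr72Ec was at 547, 444 and 1063 input CPM with RNAi, and a single library, replicate 3, lay far above the rest (0.66 ± 0.27, adjusted p = 0.439). That library held 36411 input counts of Cpr72Ec. Of the 3 tested genes of the corneal lens list, which leaves out all Cpr genes, Crys fell with RNAi (-0.78) and the other 2 did not pass the test.

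The 5 genes that changed with UAS-dTrmt10A were not called with RNAi, in a comparison that shares the control basal libraries. Their log2 changes with RNAi were -0.11 for Cpr51A, 0.01 for Cpr49Af, 0.08 for Cpr11B, -0.30 for Cpr92F and, with the high replicate 3, 0.66 for Cpr72Ec, with adjusted p from 0.186 to 0.995.

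HS was the treatment with the widest response in the table, yet few Cpr genes were called. Cpr genes also spread more between replicates, with a median ratio of highest to lowest library of 1.43 against 1.16 for other genes. The part of this spread in the number of calls was not tested. In control flies 2 Cpr genes rose and 1 fell, of 33 tested, where 19.3% of all 10219 genes rose and 23.1% fell. In UAS-dTrmt10A flies 4 rose and 1 fell, of 34 tested, where 18.7% of all 10352 genes rose and 22.0% fell. The medians over the Cpr genes were 0.04 and 0.03, and 18 genes lay above 0 in each genotype. Scaling by total library size instead of TMM moved the median of all genes to -0.36 in control and -0.37 in UAS-dTrmt10A, and then 0 Cpr genes rose and 9 or 10 fell, so the directions given next are relative to the bulk of the genes.

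Cpr67B (chr3L:9404797-9406174) was at 135, 134 and 126 input CPM in control basal and at 164, 141 and 159 in control HS. In UAS-dTrmt10A it was at 119, 136 and 138 in basal conditions and at 194, 155 and 172 after HS. The HS libraries were above all basal libraries in both genotypes. The log2 changes were 0.23 ± 0.07 (adjusted p = 0.0218) and 0.42 ± 0.10 (adjusted p = 0.0110), and with total library size that in control turned to -0.12. Cpr49Ag was at 60.7, 58.5 and 56 input CPM in control basal and at 71.1, 63.4 and 75.9 in control HS, and at 46.5, 48.9 and 54.0 and at 60.8, 53.6 and 62.2 in UAS-dTrmt10A. The 2 UAS-dTrmt10A groups overlapped by a single pair of libraries. The log2 changes were 0.26 ± 0.08 (adjusted p = 0.0216) and 0.25 ± 0.09 (adjusted p = 0.0463), and with total library size they turned to -0.09 and -0.12. With low-Yp1 libraries alone the control value of Cpr49Ag was kept (0.28, adjusted p = 0.0417) and its UAS-dTrmt10A value was not called (0.08, adjusted p = 0.582). With those libraries Cpr67B was not called in control (0.24, adjusted p = 0.0641) or in UAS-dTrmt10A (0.34, adjusted p = 0.112).

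The other genes were called in 1 genotype each. Cpr11B fell in control, from 12.1, 12.2 and 12.1 to 8.67, 9.86 and 10.6 input CPM (-0.33 ± 0.09, adjusted p = 0.0225). In UAS-dTrmt10A flies Cpr47Ef rose from 22.9, 27.5 and 34.3 to 42.6, 35.7 and 35.9 input CPM (0.43 ± 0.15, adjusted p = 0.0443). Cpr64Ad, near the detection floor, rose from 0.511, 0.589 and 0.503 to 1.12, 0.981 and 0.813 input CPM (0.86 ± 0.28, adjusted p = 0.0356). These groups did not overlap. Cpr51A fell in UAS-dTrmt10A flies from 4.42, 5.51 and 4.53 to 2.10, 2.85 and 3.97 input CPM (-0.66 ± 0.22, adjusted p = 0.0444), with each HS library under each basal library. With low-Yp1 libraries alone, UAS-dTrmt10A basal replicate 3 was left against HS replicates 1 and 2. In that fit Cpr47Ef, Cpr64Ad and Cpr51A were not called, nor were Cpr67B and Cpr49Ag. The Cpr genes called there were others. In control Cpr11B was kept (-0.34).

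Whether heat acted differently in the 2 genotypes was tested by the interaction. Of 34 Cpr genes, 0 were called by edgeR (1 at an unadjusted p under 0.05, 0 by DESeq2), where 0.0379% of all genes were. Cpr51A had an interaction of -0.67 ± 0.34 (adjusted p = 0.391), Cpr11B of 0.25 ± 0.18 (adjusted p = 0.559) and Cpr67B of 0.18 ± 0.12 (adjusted p = 0.544).

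The number of heat calls in control changed with the library left out. It was 0 without control basal replicate 2 or control HS replicate 1, 1 without control basal replicate 3, and 6 without control HS replicate 2. Cpr67B and Cpr49Ag were each lost in most of these fits. The part of the smaller number of libraries in these losses was not tested. In UAS-dTrmt10A flies 1 to 4 were called when a replicate was left out. The count was 1 without HS replicate 1, 2 without HS replicate 2 or basal replicate 1, and 3 without basal replicate 2. Markers of other cell types moved with HS in control, where 6 of 8 muscle genes and 7 of 11 photoreceptor genes rose. The summed muscle level was 7092 to 8565 input CPM in control basal and 8592 to 11348 in control HS. For photoreceptors it was 25482 to 28369 and 28837 to 35860, and 0 genes of these lists were at 0 in every library. Of 10 neuronal genes 3 rose, of 7 glial genes 3 rose and 1 fell, and of 10 fat body genes 3 rose and 3 fell. Yp1 and Yp2 were among those that fell, and in control basal both were high in replicate 1 alone. Of 4 tracheal genes 0 were called. The 5 epidermal markers, of which 2 rose and 1 fell, summed to 973 to 1046 input CPM in control HS against 853 to 925 in control basal. In UAS-dTrmt10A, 7 of 8 muscle, 7 of 10 neuronal, 6 of 11 photoreceptor and 3 of 5 epidermal genes rose with HS, and 1 epidermal gene fell. Of 7 glial genes 3 rose and 1 fell, of 4 tracheal genes 2 rose, and of 10 fat body genes 0 were called in UAS-dTrmt10A. There the epidermal sum went from 858 to 873 input CPM in basal conditions to 1158 to 1302 after HS, without overlap. Their part in the Cpr values was not tested. Of 16 tested other structural cuticle genes, 2 rose and 0 fell in each genotype, where 19.3% and 18.7% of all genes rose. They were Edg91 (2.07 in control, 2.11 in UAS-dTrmt10A) and Lcp65Ag3 (1.60 and 1.68). In control 3 of 21 tanning, 2 of 12 ZP-domain, 1 of 9 obstructor and 0 of 4 Tweedle genes rose. In UAS-dTrmt10A these were 2 of 21, 4 of 11, 0 of 9 and 2 of 7. Of chitin synthesis and chitinase genes 2 of 16 rose in control and 4 of 17 in UAS-dTrmt10A, and 1 fell in each.

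**Figure D3:**
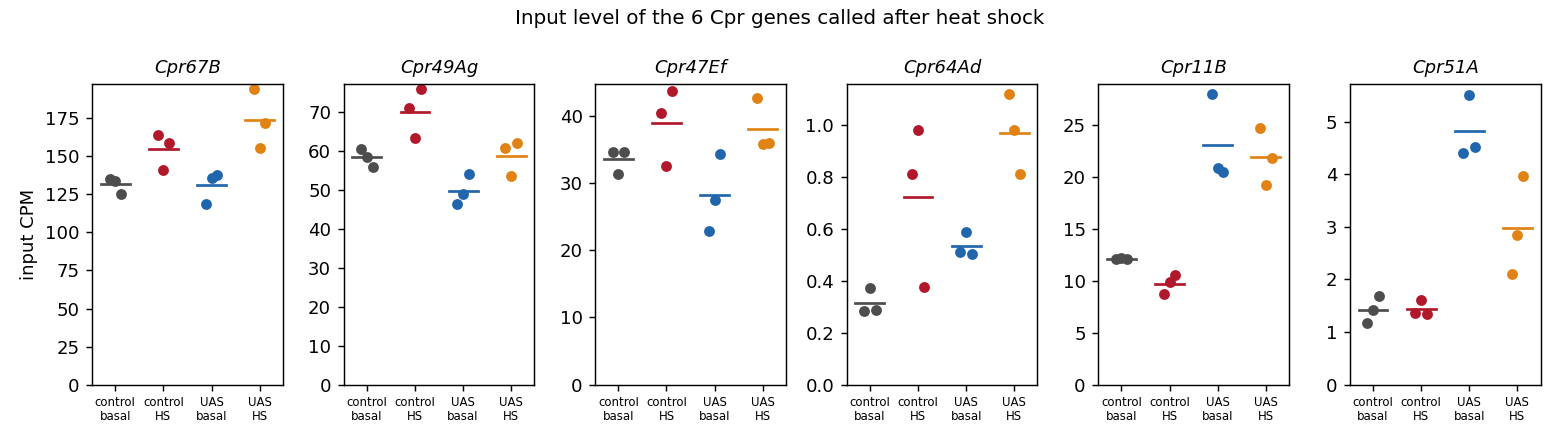
Input level, in TMM-scaled CPM, of the 6 Cpr genes called after heat shock in control or UAS-dTrmt10A flies. Points are the 3 libraries of each group and bars their means. Cpr67B is higher after heat shock in each library of both genotypes, and Cpr51A is lower after heat shock in UAS-dTrmt10A flies alone; the difference between genotypes did not pass the test.

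Replicates of a group differed more for many Cpr genes than for genes outside the family taken as a whole, and did so together. Cpr100A varied between the lowest and the highest library of a group by 1.46-fold to 1.76-fold. Its lowest library was replicate 3 in control basal and dTrmt10A RNAi, replicate 2 in control HS and UAS-dTrmt10A HS, and replicate 1 in UAS-dTrmt10A basal. In at least 4 of the 5 groups the same library was also the lowest for 17 of 34 other Cpr genes (50.0%) and for 1175 of 10670 genes outside the family (11%). In all 5 groups it was the lowest for 7 of the 34 (20.6%) and for 325 of the other genes (3.05%). The 7 were Cpr56F, Cpr11A, Cpr97Eb, Cpr64Aa, Cpr49Ab, Cpr76Bd and Cpr62Bc. This description was chosen after seeing the data, with Cpr100A as its reference, and has no test. The median ratio of highest to lowest library was 1.43 for the Cpr genes and 1.16 for the other genes. A wide spread was not particular to the family. In control basal the summed obstructor genes ranged from 915 to 1329 input CPM and the tracheal markers from 395 to 474. Chitin synthesis and chitinase genes ranged from 1570 to 1750 there, and neuronal markers from 4543 to 4735. Whether these lists share their lowest library with Cpr100A was not examined.

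The neighbours Cpr97Ea and Cpr97Eb on 3R showed the shared order. Cpr97Ea was at 178, 182 and 128 input CPM in control basal, 161, 101 and 192 in control HS, and 101, 202 and 138 in UAS-dTrmt10A basal. Cpr97Eb was at 185, 157 and 118, at 164, 102 and 172, and at 124, 224 and 208 input CPM in the same libraries. Cpr50Cb, on another chromosome, was at 23.4, 23.1 and 13.5, at 17.8, 9.71 and 21.1, and at 10.3, 27.2 and 20.6. All 3 genes had their lowest level in the same library of each of these 3 groups, and in replicate 3 with RNAi. In UAS-dTrmt10A HS the order was not shared: Cpr97Ea (141, 144 and 230) and Cpr50Cb (13.4, 14.1 and 30.6) were lowest in replicate 1, and Cpr97Eb (194, 157 and 251) in replicate 2. The widest spread was that of Cpr49Ac, which went from 1.77 to 20.8 input CPM in UAS-dTrmt10A basal and from 0.930 to 7.17 in control HS. Cpr47Ee and Cpr49Ag had the smallest spread, with median coefficients of variation within groups of 5.29% and 7.71%. Cpr72Ec, Cpr73D and Cpr60D shared their lowest library with Cpr100A in 0 of the 5 groups.

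**Figure D4:**
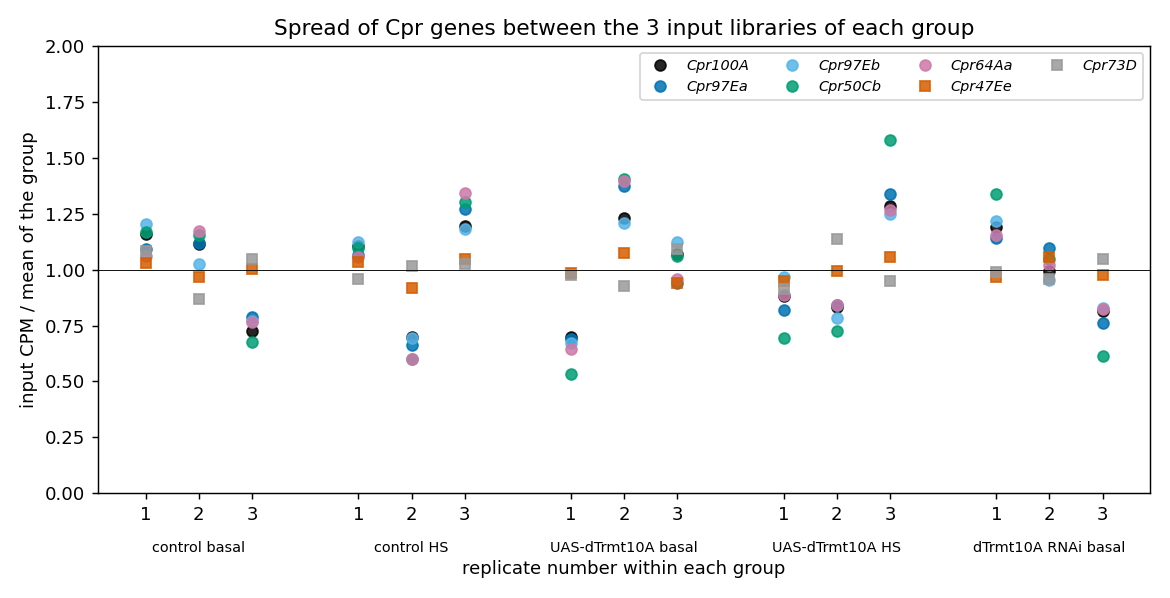
Input level of 7 Cpr genes in each input library, divided by the mean of its group. Circles are Cpr100A and 4 genes that vary with it, squares are Cpr47Ee and Cpr73D, and the horizontal line marks the group mean. In each group all circles lie below the line in the library that is lowest for Cpr100A, and the squares stay closer to the line than the circles there.

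IP over input measures how much of a gene's fragments the m6A antibody retained, relative to the bulk of the genes. In control basal 16 Cpr genes were higher and 7 lower in IP than in input, of 33 tested, where 35.3% of all 10080 genes were higher and 34.6% lower. The median log2 IP/input was 0.41 over the Cpr genes and -0.05 over all genes. In control HS 11 were higher and 5 lower of 33 (all genes 35.0% and 35.7%), in UAS-dTrmt10A basal 10 and 6 of 35 (31.1% and 31.3%), in UAS-dTrmt10A HS 13 and 5 of 33 (33.6% and 35.8%), and in dTrmt10A RNAi 14 and 9 of 35 (35.4% and 38.4%). Medians over the Cpr genes were 0.34 in each of these 4 groups, and -0.08 to -0.05 over all genes. IP and input of a replicate came from the same RNA, and with that pairing as a block 18 Cpr genes were higher and 9 lower in UAS-dTrmt10A basal, where 73.7% of all genes were called in either direction. In control basal, control HS, UAS-dTrmt10A HS and RNAi, where the block called 74.0%, 77.6%, 75.1% and 79.3% of all genes, it called 17 and 7, 16 and 7, 18 and 6, and 18 and 9. Without UAS-dTrmt10A basal replicate 3, 10 Cpr genes were called in that group, and 15 were called in dTrmt10A RNAi without replicate 2, the library with high Yp1.

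Cpr47Ef was at rank 7 in log2 IP/input of the 10080 genes in control basal. Its log2 IP/input was 2.81, 3.65 and 3.21 in the control basal replicates, 3.42, 3.22 and 3.20 in control HS, 3.30, 3.43 and 2.89 in UAS-dTrmt10A basal, 3.35, 3.58 and 3.96 in UAS-dTrmt10A HS and 3.52, 3.41 and 3.32 with RNAi. The 5 groups overlapped, and the fitted value in control basal was 3.27 ± 0.15 (adjusted p = 1.21e-07). Its exons had the highest GC content of the family at 61.9%. Next were Cpr72Ec at 1.80 ± 0.13 (adjusted p = 7.46e-07) and Cpr73D at 1.36 ± 0.10 (adjusted p = 9.98e-07), at rank 181 and 536 of all genes in control basal.

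Cpr72Ec stayed between 1.63 and 2.22 log2 IP/input in all 15 pairs of libraries. This held for dTrmt10A RNAi replicate 3 too, at 1.80, where its input level was 1063 CPM. Cpr73D (chr3L:16939100-16957689), whose exons share 294 bases with those of Ogdh on the opposite strand, lay between 1.08 and 1.86. Cpr100A, the gene with the highest level per kilobase, lay between 1.13 and 1.81. All 3 were thus above 0 in every pair.

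At the low end, Cpr64Ac had the lowest fitted value in control basal at -1.54 ± 0.40 (adjusted p = 0.00579), from 3 to 8 IP counts per library. Cpr62Bb was at -0.94, -0.85 and -1.03 log2 IP/input in the control basal replicates, and between -1.31 and -0.68 in all 15 pairs of libraries. Cpr65Au was at -0.75, -0.95 and -1.04 in control basal, and between -1.40 and -0.43 in all pairs. So 2 of the genes with abundant input reads were below 0 throughout, with fitted values of -0.92 ± 0.13 and -0.89 ± 0.13 in control basal.

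Of 31 Cpr genes tested in all 5 groups, 8 were higher in IP in each group (Cpr100A, Cpr47Ee, Cpr47Ef, Cpr49Ab, Cpr49Ae, Cpr72Ec, Cpr73D and Cpr76Bc) and 3 lower in each (Cpr11B, Cpr62Bb and Cpr65Au). With the block these were 14 and 4, and 0 genes were called in opposite directions in any 2 groups. Genes side by side could differ: Cpr62Bc was at 0.54 ± 0.09 in control basal (adjusted p = 3.38e-04) and its neighbour Cpr62Bb at -0.92 ± 0.13 (adjusted p = 8.20e-05). Cpr49Ae was at 0.56 ± 0.08 (adjusted p = 6.75e-05) and Cpr49Ag at -0.08 ± 0.07 (adjusted p = 0.313). Differences between genes were not tested.

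**Figure D5:**
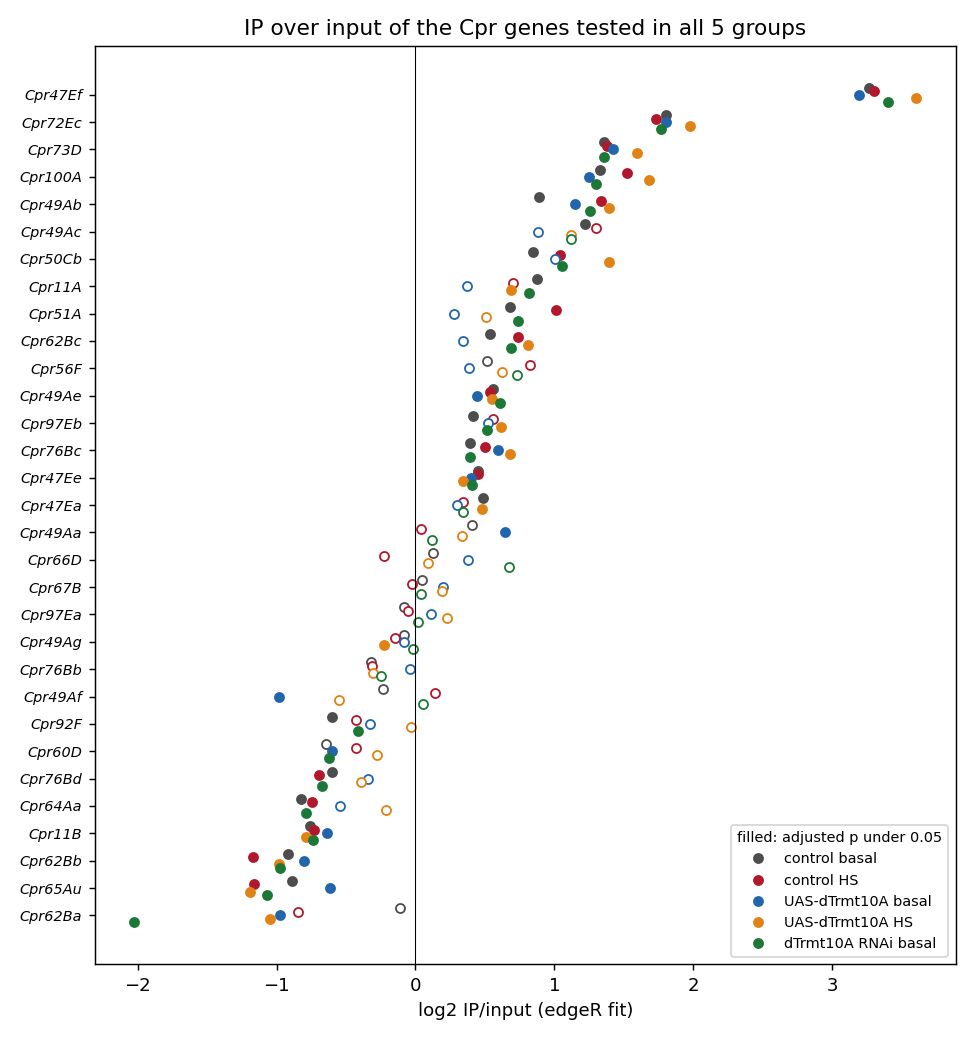
Log2 IP/input fitted by edgeR for the 31 Cpr genes tested in all 5 groups, ordered by their mean. Each point is a group of 3 replicates, filled where the adjusted p was under 0.05. Cpr47Ef stands between 3.19 and 3.61, and Cpr62Bb and Cpr65Au lie below -0.6 in every group.

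Exon length, base content and a motif were set beside log2 IP/input in control basal, as a description across genes, which are not independent replicates. Spearman's rho with exon length was 0.38 over 33 Cpr genes and 0.32 over 10050 genes. With GC content it was 0.04 and 0.01. The tested Cpr genes were shorter than others, with a median exon length of 1054 against 2097.5 bases. GGACT, a form of the m6A consensus, was searched on the transcribed strand of the joined exons. It occurred in 20 of the 33 tested Cpr genes (60.6%) and in 80.5% of 10044 genes. Among genes with exons of 1000 to 2500 bases it occurred in 78.8%, but this range leaves out the shorter Cpr genes. Per kilobase of exon, the median number of matches was 0.794 in the tested Cpr genes and 0.809 in all genes. Spearman's rho of this density with log2 IP/input was 0.03 and -0.12. GGACT was present in 12 of the 16 Cpr genes higher in IP (75%) and in 4 of the 7 lower (57.1%). Cpr72Ec and Cpr100A held none, Cpr47Ef held 2, and among all 70 Cpr genes 31 held at least 1.

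The sites of 3 genes on 3L are shown because they occur both in genes high in IP (Cpr73D and Cpr62Bc) and in a gene low in IP (Cpr62Bb). The letters are from the RefSeq sequence of dm6, minus strand, 5′ to 3′, with GGACT in capitals and 10 bases on each side.
Cpr73D, 5′ UTR, chr3L:16955504-16955508: gttagtggtgGGACTgttaatgcta
Cpr73D, 5′ UTR, chr3L:16955478-16955482: cgcacggcctGGACTctcaaacata
Cpr73D, coding, chr3L:16939302-16939306: cggaaggatcGGACTttcgccgtcg
Cpr62Bc, 3′ UTR, chr3L:1840606-1840610: tggattccccGGACTttcccggcag
Cpr62Bb, coding, chr3L:1834481-1834485: ttcgcactgtGGACTacacggcgga
Cpr62Bb, coding, chr3L:1834469-1834473: actacacggcGGACTccattcacgg
Cpr62Bb, 3′ UTR, chr3L:1832829-1832833: ctactaggacGGACTccgagctccc
Cpr62Bb thus holds 3 matches in 992 bases of exon and Cpr62Bc 1 in 1134 bases. The counts give 1 value per gene and library, so m6A at these positions was not analysed here.

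A change of IP/input between groups asks whether retention by the antibody changed apart from the level. By edgeR's test without a block, 0 Cpr genes were called in any of the 5 comparisons, where 0.945% of all genes were with UAS-dTrmt10A after HS, 0.0378% with heat in UAS-dTrmt10A, and 0% in the other 3. At an unadjusted p under 0.05 there were 0 Cpr genes with UAS-dTrmt10A in basal conditions, 0 after HS, 2 with RNAi, 0 with heat in control and 1 with heat in UAS-dTrmt10A, and DESeq2 called 0 in each. Since the libraries are paired, the blocked fit is given beside it. It called Cpr76Bd with UAS-dTrmt10A in basal conditions (0.30 ± 0.08, adjusted p = 0.0308), where 7.97% of all genes were called. It called 0 with RNAi and 0 with heat in control, where 0.0290% and 1.72% of all genes were.

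After HS the blocked fit called 7 Cpr genes higher and 0 lower in IP/input in UAS-dTrmt10A than in control, of 34 tested, where 12.5% of all genes were called in either direction. They were Cpr64Aa (0.57), Cpr92F (0.48), Cpr50Cb (0.42), Cpr47Ef (0.37), Cpr76Bd (0.37), Cpr97Ea (0.35) and Cpr67B (0.28), with adjusted p from 0.00704 to 0.0407. With heat in UAS-dTrmt10A flies it called 4 higher and 1 lower of 36 tested, where 18.6% of all genes were called. Cpr62Bc (0.49), Cpr50Cb (0.47), Cpr100A (0.45) and Cpr47Ef (0.45) were higher and Cpr65Au (-0.55) lower. The shares over all genes are not split by direction here. Whether the lean to higher values is particular to the Cpr genes cannot be told from them. These comparisons share the UAS-dTrmt10A HS libraries, whose replicate 3 had the highest log2 IP/input of its group for Cpr47Ef, Cpr72Ec, Cpr73D, Cpr100A and Cpr62Bc.

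Cpr73D and Cpr62Bc are on the study's list of genes with dTrmt10A-dependent m6A and Cpr72Ec in its sheets of differential peaks, all chosen by the study on these same libraries. Over whole genes, the change of log2 IP/input with UAS-dTrmt10A was 0.09 in basal conditions and 0.27 after HS for Cpr73D, and 0.02 with RNAi. For Cpr62Bc it was -0.17, 0.13 and 0.16, and for Cpr72Ec 0.02, 0.31 and -0.02. None of the 3 genes passed the test in any of these comparisons, with or without the block.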

How the data were processed

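The deposited values are raw counts of reads per gene, without normalization. Per the labels and the study's methods, the authors trimmed reads with Trim Galore, aligned them to dm6 with STAR 2.7.3a and counted reads on exons. Libraries were made with a stranded kit, and the strand setting of counting is not given in the sources used here. The labels name one m6A antibody and the methods name a second as well, so antibody was not a term in any fit.

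The analysis used edgeR 4.0.16 and DESeq2 1.42.0 under R 4.3.3, with figures drawn in Python 3.11.15 with matplotlib 3.10.9. For each comparison the libraries of the groups compared were kept together. Genes with low counts were removed by filterByExpr at a minimum of 10 counts and a total of 15, TMM factors were applied, and the quasi-likelihood test of edgeR was run on the remaining genes. Adjustment followed Benjamini and Hochberg over all of them, at a threshold of 0.05. Input CPM was scaled by TMM over the 15 input libraries, and log2 IP/input over 30 libraries with a prior count of 2. A change of IP/input and the heat by genotype interaction were contrasts within such fits. Nothing in the labels says that replicates came from separate crosses, so p-values measure the spread between these samples. Floors cover counting error alone, because no molecular identifiers were used and reads can be copies of 1 molecule. The fits were tested on simulated counts with the same spread for every gene and no shared variation between libraries of a replicate. That check does not cover paired libraries or genes with a wide spread.

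The members and the lists were chosen with earlier results of these data known. Values are named for the 10 genes with the highest level per exon length, for up to 8 called genes in each direction per comparison, for the 3 highest and 3 lowest in IP/input, for Cpr genes on the study's lists and for near-identical copies. Other genes named were chosen after their values were seen. Ensembl gave the exon models and RefSeq the sequence, both for dm6, and all 70 genes were matched. Replicate numbers were taken to pair libraries where residuals of same-numbered libraries correlated by more than 0.1 in all 3 pairs. IP and input met this (0.395 to 0.721), as the labels' shared RNA implies, and so did control HS and UAS-dTrmt10A HS input (0.218 to 0.472), but no other input comparison. Alternatives were other scalings, filters, DESeq2's test, the replicate block, a removed trend with exon length, leaving out replicates and, added after seeing the data, only libraries with Yp1 of at most 20 CPM.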

Additional observations from a re-analysis of the deposited data

How the results depend on the processing

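Counts of called Cpr genes moved by more than 1.5 times as follows. Scaling by total library size gave 9 for heat in control, 10 for heat in UAS-dTrmt10A and 0 for dTrmt10A RNAi, and it turned Cpr49Ag to -0.093 and Cpr67B to -0.12 for heat in control and Cpr49Ag to -0.12 for heat in UAS-dTrmt10A. For dTrmt10A RNAi, DESeq2's test and no filter each gave 4 and at least 10 counts in every library gave 0. The replicate block gave 9 for UAS-dTrmt10A after HS, 4 for dTrmt10A RNAi, 27 for IP over input in UAS-dTrmt10A basal, and for the change of IP/input 1 with UAS-dTrmt10A in basal conditions, 7 after HS and 5 for heat in UAS-dTrmt10A. Apart from the comparisons that share RNA and UAS-dTrmt10A after HS, replicates share only a number. Low-Yp1 libraries alone, chosen after seeing the data, gave 9 for UAS-dTrmt10A in basal conditions, 2 after HS, 0 for dTrmt10A RNAi and 15 for IP over input with RNAi; for IP over input in UAS-dTrmt10A basal they left no residual degrees of freedom. Removing the trend with exon length turned Cpr49Ag in UAS-dTrmt10A HS to 0.15. Leaving out each replicate gave 0 to 6 for heat in control, 1 to 4 for heat in UAS-dTrmt10A, 3 to 5 and 1 to 5 for UAS-dTrmt10A in basal conditions and after HS, 0 to 1 for RNAi, 0 for the interaction and each change of IP/input, and 17 to 22, 12 to 22, 10 to 19, 15 to 17 and 15 to 24 for IP over input in control basal, control HS, UAS-dTrmt10A basal, UAS-dTrmt10A HS and RNAi. The causes were not tested. Where an arm is left with 1 library, that library is assumed to vary like the others. In input, 3 counts correspond to 0.0588 to 0.149 CPM, and the 35 genes with few reads were not tested there.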
